A study of Homo sapiens with 6 samples.

Results

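Of the 61541 genes in the deposited count tables, 7 were studied here: the CC chemokine genes CCL2, CCL5, CCL7, CCL8 and CCL20, and CX3CL1 and CXCL16, which encode the chemokines that are made as membrane proteins. They were picked by name, with earlier results of these data known, and 1 gene identifier matched each. RNA came from RCC4, an established line of human clear cell renal cell carcinoma cells, in 3 untreated libraries and 3 libraries from cells given IFNγ (1000 U/mL) and TNF (25 ng/mL) together for 24 h. Both groups were grown in the same complete DMEM with foetal serum. Each replicate, called biological in the labels, pooled 3 flasks, and poly(A)+ RNA was read directly on nanopores, with 1 flow cell for each library. No library received a single cytokine, and 1 time and 1 cell line were sampled.

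Chemokines are small secreted proteins that guide leukocytes along concentration gradients through G protein-coupled receptors. The CC class carries adjacent cysteines near the amino terminus and mainly draws monocytes, T cells, eosinophils and dendritic cells. CX3CL1 (fractalkine) and CXCL16 instead carry a chemokine domain on a mucin-like stalk with a transmembrane segment, so that they can hold receptor-bearing cells on a surface or be cut off by metalloproteases and act as soluble attractants. IFNγ acts through JAK kinases, TNF acts through NF-kappaB, and several chemokine genes are known targets of both routes in epithelial and endothelial cells. The comparison asks how transcripts of these attractants differ between RCC4 cells with and without the 2 cytokines.

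The stretch before the start of the gene was printed for the 3 of the 7 members that have an entry in the RefSeq promoter table (GRCh38.p14), which sets CCL8, with at least 209 reads in each treated library, beside CCL7 and CCL20 with a few. CCL2, CCL5, CX3CL1 and CXCL16 were not matched. Each stretch is the 250 bases before the RefSeq start, on the plus strand, and capitals mark matches to the motifs searched. For CCL7 and CCL8 the RefSeq start is also the start of the gene as counted, but for CCL20 it lies 8103 bases inside the gene as annotated in the count tables. They lie at chr17:34269971-34270220 (CCL7), chr17:34319185-34319434 (CCL8) and chr2:227813592-227813841 (CCL20).
CCL7: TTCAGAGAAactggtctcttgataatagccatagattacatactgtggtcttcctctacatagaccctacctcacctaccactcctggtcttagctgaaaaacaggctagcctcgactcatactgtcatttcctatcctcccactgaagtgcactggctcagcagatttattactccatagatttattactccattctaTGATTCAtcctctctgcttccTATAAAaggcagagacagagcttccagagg
CCL8: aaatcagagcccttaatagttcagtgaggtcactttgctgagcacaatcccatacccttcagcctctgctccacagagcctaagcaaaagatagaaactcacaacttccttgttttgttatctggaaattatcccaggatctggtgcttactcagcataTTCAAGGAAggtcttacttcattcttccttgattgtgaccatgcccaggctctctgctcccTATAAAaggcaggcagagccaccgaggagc
CCL20: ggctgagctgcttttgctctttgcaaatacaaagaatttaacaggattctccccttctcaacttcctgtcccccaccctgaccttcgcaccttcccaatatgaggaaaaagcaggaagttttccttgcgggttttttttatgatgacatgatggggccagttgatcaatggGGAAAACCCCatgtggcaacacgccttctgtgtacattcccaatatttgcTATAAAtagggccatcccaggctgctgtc

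Motifs were searched on both strands, except the TATA box, which was searched on the gene's strand. The TATA box TATAAA was found in the windows of CCL7, CCL8 and CCL20, starting 30, 30 and 29 bases before the start, and it occurs in 6.80% of 35114 RefSeq windows of this length. The interferon gamma activation motif TTCNNNGAA (GAS) was found once in CCL7, at the far end of the window, and once in CCL8, from base 91 to base 83 before the start. It occurs in 6.57% of windows. The NF-kappaB consensus was found once, on the minus strand in CCL20, against 9.96% of windows, and the AP-1 motif TGANTCA once, in CCL7, against 6.57%. The core of the interferon-stimulated response element (ISRE) was in none of the 3, against 3.02% of windows. No match overlapped another, a match is not a bound site, and these windows hold no more distant elements. The longest run shared by the CCL7 and CCL8 windows was cctataaaaggcag, 14 bases that start 32 bases before the start of either gene. Of 35116 windows, 2 hold it, those of CCL7 and CCL8 themselves, from which the run was chosen.

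Library totals ran from 3626000 to 4406296 counts. Of the markers listed for renal epithelial tumour cells, VIM, KRT8, KRT18, PAX8 and CA9 were present in untreated cells. They stood at 4616 ± 311, 1348 ± 373, 777 ± 288, 145 ± 16.4 and 38.7 ± 7.59 CPM (a read count relative to the TMM-scaled library total) there (SD, n = 3). Of these, VIM was called higher in treated cells (7314 ± 907 CPM, edgeR adjusted p 0.0274) and PAX8 lower (84.1 ± 11.5 CPM, adjusted p 0.0316). Those calls were lost in 4 and 5 of 13 alternatives, each time without 1 library. The proximal tubule receptor gene LRP2 had 0 counts, and CUBN had 0, 0 and 1 untreated and 2, 0 and 0 treated reads. Leukocytes are a major source of CC chemokines, and their defining genes PTPRC, LYZ, TYROBP, AIF1 and CD68 had 0 counts in all 6 libraries. The summed level of the 9 leukocyte and myeloid markers ran from 2.96 to 6.02 CPM in untreated and from 1.35 to 3.14 CPM in treated libraries. CSF1R was the largest part in every library but treated replicate 3, where FCER1G stood at 1.71 and CSF1R at 1.14 CPM, and CSF1R was called lower in treated cells (-1.90 on the log2 scale, edgeR adjusted p 0.0314), a call lost in 7 of 12 alternatives. Summed T and NK cell markers (7 genes) did not exceed 0.451 CPM, and summed endothelial markers (6 genes) did not exceed 0.259 CPM, in any library. The 6 fibroblast and pericyte markers summed to 54.8 to 74.5 CPM in untreated and 27.4 to 49.1 CPM in treated libraries, from COL1A1 and PDGFRB alone, with PDGFRA, DCN, LUM and COL3A1 at 0. PDGFRB had 10.3 ± 0.867 CPM without the cytokines and 2.72 ± 0.127 with them (SD, n = 3 each). It was called lower (edgeR adjusted p 0.0049), also in all 12 alternatives that tested it. The part of these marker changes in the chemokine results was not tested.

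Of the 7 chemokine genes, 5 rose with IFNγ and TNF: CCL2, CCL5, CCL8, CX3CL1 and CXCL16 (edgeR quasi-likelihood test, Benjamini-Hochberg adjusted p under 0.05 over all genes). No member fell. Among all 10067 genes tested, 5.58% were called higher and 2.55% lower, 8.14% in all. Because the members were chosen with earlier results of these data known, setting them beside these shares is no test of the family. CCL7 and CCL20 did not pass the filter on low counts. CCL5, CCL8 and CXCL16 passed it through the treated libraries alone, so the share of tested members that rose is not a measure of the family. The treated libraries lay above all untreated ones in 6 of the 7 genes, CCL20 being the exception. Among the genes tested the share was 13.9%. That set leaves out CCL7 and holds CCL5, CCL8 and CXCL16 through their treated libraries alone, so the shares are not like for like. Over all genes tested, the median change was -0.03 on the log2 scale. The counts came from bulk RNA, in which more cells with a transcript and more RNA per cell cannot be told apart.

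**Figure D1:**
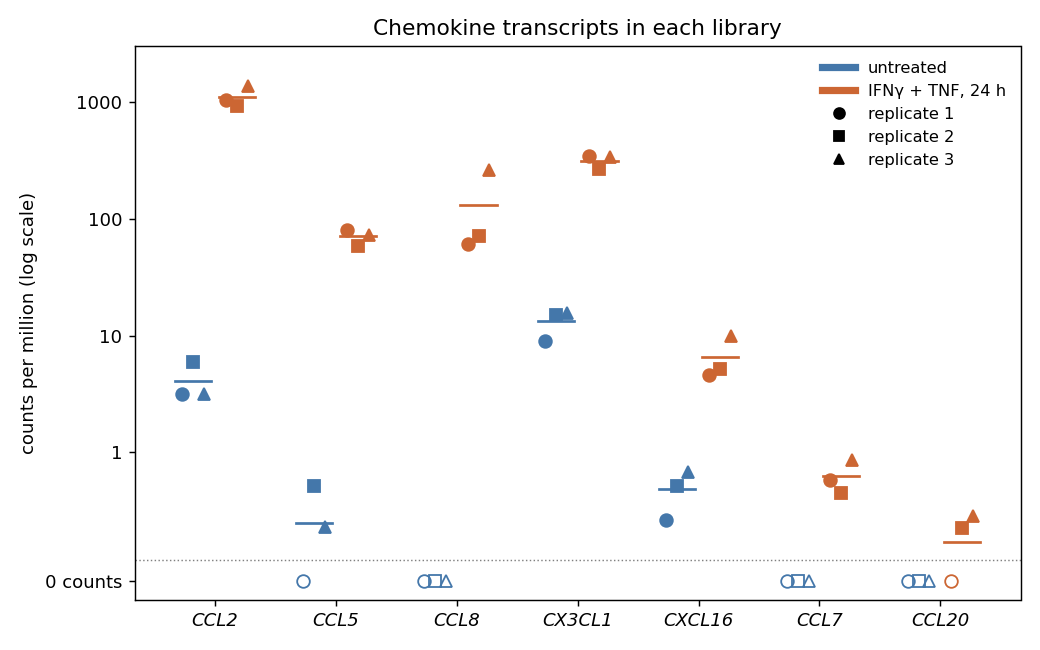
CPM (log axis) of the 7 chemokine genes in each of the 6 libraries, with bars at group means and open symbols for libraries with 0 counts. CCL2, CX3CL1 and CXCL16 had reads in every untreated library, and CCL5 in all but replicate 1. CCL8, CCL7 and CCL20 were at 0 in all untreated libraries, and CCL7 and CCL20 were under 1 CPM in treated libraries.

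CCL2 encodes monocyte chemoattractant protein 1, the main ligand of CCR2 on monocytes. The gene (ENSG00000108691) lies on the plus strand of chromosome 17, from 34255218 to 34257203 on GRCh38. Untreated replicates 1, 2 and 3 held 12, 23 and 14 reads, and treated replicates 1, 2 and 3 held 3589, 4110 and 4736. On the normalised scale CCL2 stood at 3.14, 5.95 and 3.19 CPM in untreated cells and at 1036, 928 and 1351 CPM in treated cells. The lowest treated library was thus far above the highest untreated one, and the treated libraries lay within 1.46-fold of each other. The log2 fold change of CCL2 was 8.07 (SE 0.33, edgeR adjusted p 3.34e-06), the third smallest p of all genes tested, and the ratio of summed counts was 269 (exact 95% interval 203 to 364, counting error only).

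CCL8 encodes monocyte chemoattractant protein 2, a ligand of several CC receptors, and lies in the same cluster (ENSG00000108700; chromosome 17, 34319435 to 34321402, plus strand). No untreated library held a read, and treated replicates 1, 2 and 3 held 209, 312 and 920. Treated levels were 60.4, 70.4 and 262 CPM. Replicate 3 therefore stood 4.35-fold above replicate 1, while no treated library came near the untreated level. Against a limit of 3 counts in a library, which is at most 0.785 CPM in the untreated group, CCL8 was at least 167-fold higher in treated cells. Without treated replicate 3 that bound was 83.2-fold. The edgeR adjusted p was 0.00188, the largest among CCL2, CCL5, CCL8 and CX3CL1, and the fitted log2 fold change of 12.00 depends on the prior count and is no bound.

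CCL7 encodes monocyte chemoattractant protein 3 and lies between these genes (ENSG00000108688; chromosome 17, 34270221 to 34272242, plus strand). It had 0 reads in every untreated library and 2, 2 and 3 reads in treated replicates 1, 2 and 3. All 3 treated libraries were above the untreated ones, at 0.578, 0.451 and 0.856 CPM, but their levels were at or under what 3 counts give, so no fold is stated. In the fit without the filter, which takes every gene with a read, CCL7 had an edgeR adjusted p of 0.123.

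Along the cluster from CCL2 to CCL1, 7 genes are annotated over chromosome 17, 34255218 to 34363233, and the treated signal did not follow position. CCL7 starts next after CCL2, with a gap of 13018 bases between the genes, yet held 7 reads over the treated libraries where CCL2 held 12435. CCL11 (eotaxin, which draws eosinophils) lies between CCL7 and CCL8 and had 0, 1 and 0 reads in untreated and 13, 14 and 6 in treated libraries. Beyond CCL8, whose treated total was 1441 reads, CCL13 and CCL1 had 0 reads in all 6 libraries. The gene next after CCL8, ENSG00000265614, also had 0, as did LINC01989, the nearest gene below CCL2 and outside the cluster. None of the members shared exonic bases with another gene on its own strand. Within 1 cluster, treated read counts thus ran from 0 to 4736.

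**Figure D2:**
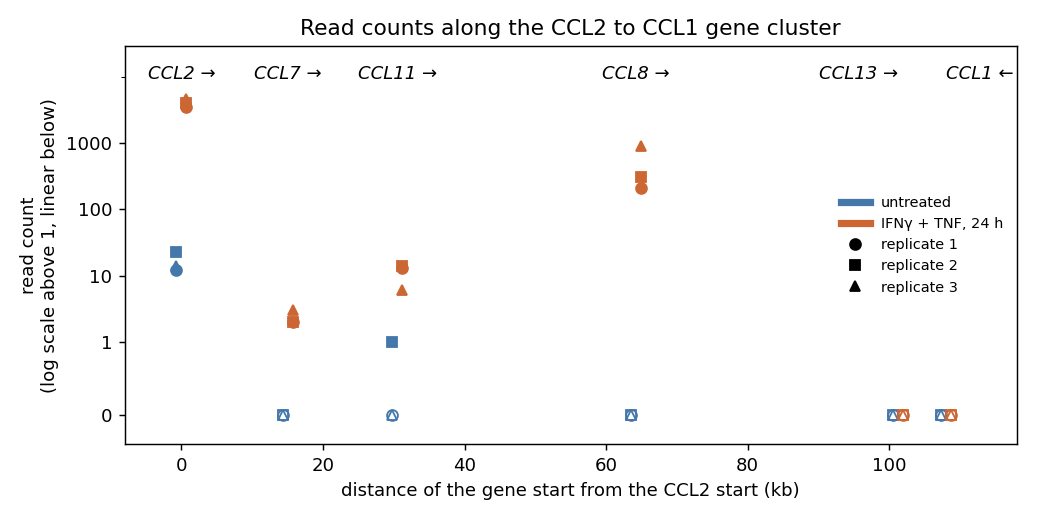
Read counts in the 6 libraries (log axis above 1, linear below) for the chemokine genes of the CCL2 to CCL1 cluster, placed by the distance of each gene's start from the start of CCL2, with arrows for strand. CCL2 and CCL8 hold from 209 to 4736 reads in treated libraries, CCL7 holds 2 or 3, and CCL13 and CCL1 hold none.

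CCL5 (RANTES) encodes a ligand of CCR1 and CCR3, among others, that draws T cells, monocytes and eosinophils. It lies elsewhere on chromosome 17, on the minus strand (ENSG00000271503; 35871491 to 35880793). Untreated replicates 1, 2 and 3 held 0, 2 and 1 reads, and treated replicates held 276, 258 and 256. Treated levels were 79.7, 58.2 and 73.0 CPM, against at most 0.517 CPM in untreated cells. The treated libraries were close to each other and the groups were far apart. The log2 fold change was 7.97 (SE 0.45, edgeR adjusted p 9.68e-06). With 3 untreated reads in all, the ratio of summed counts was 279 with an exact 95% interval from 95.1 to 1356. The ratio of group means, 283, was 618 without untreated replicate 2 and 189 without untreated replicate 1. Its neighbours HEATR9 and a 7SK gene had 0 reads. Of the other CC genes in the interval from CCL5 to CCL4, CCL3 had 8, 4 and 17 treated reads and CCL4 1 in each treated library, with 0 in untreated libraries, while CCL16, CCL14, CCL15, CCL23 and CCL18 had 0 throughout.

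CCL20, the ligand of CCR6 on Th17 cells and dendritic cells, was close to absent (ENSG00000115009; chromosome 2, 227805739 to 227817564, plus strand). It had 0 reads in each untreated library and 0, 1 and 1 in treated replicates 1, 2 and 3. The groups overlapped. By the limit of 3 counts, 0 reads allow up to 0.785 CPM in a single untreated library. With so few reads no difference between the groups is stated (edgeR adjusted p 0.668 in the fit without the filter). Of the 3 windows searched, that of CCL20 alone held the NF-kappaB consensus, and its RefSeq start lies 8103 bases inside the gene as annotated. CCL2, CCL5, CX3CL1 and CXCL16 had no window, so the motif cannot be set against the rise of the members.

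CX3CL1 encodes fractalkine, the ligand of CX3CR1 on monocytes, NK cells and cytotoxic T cells, and was present in untreated cells. The gene (ENSG00000006210) lies on chromosome 16, from 57372477 to 57385044, plus strand. Untreated replicates 1, 2 and 3 held 34, 58 and 69 reads, or 8.90, 15.0 and 15.7 CPM. Treated replicates held 1179, 1169 and 1176 reads, or 340.5, 264 and 335 CPM. The groups did not overlap, and the treated libraries lay within 1.29-fold of each other. The log2 fold change was 4.56 (SE 0.26, edgeR adjusted p 1.2e-05), and the ratio of summed counts was 23.2 (exact 95% interval 19.8 to 27.3). The interval lay below those of CCL2 and CCL5, which is a description of counting error and not a test between genes. CX3CL1 sits between 2 CC chemokine genes. CCL22, 6288 bases below it, had 0 reads in all libraries, and CCL17, 19723 bases above it, had 0, 1 and 3 treated reads.

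CXCL16 encodes the other transmembrane chemokine, the ligand of CXCR6 on T and NKT cells and also known as a scavenger receptor for oxidised lipoprotein. It lies on the minus strand of chromosome 17 (ENSG00000161921; 4733533 to 4739928). Untreated replicates 1, 2 and 3 held 1, 2 and 3 reads, and treated replicates held 16, 23 and 35. Treated levels were 4.62, 5.19 and 9.98 CPM, against 0.262, 0.517 and 0.683 CPM in untreated cells, so the groups were apart although the treated signal was low. The log2 fold change was 3.65 (SE 0.55, edgeR adjusted p 0.00358), and the ratio of summed counts was 13.1 (exact 95% interval 5.73 to 36.8). MED11 and ZMYND15 overlap the gene on the opposite strand, and the counting was strand-specific, per the file headers.

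**Figure D3:**
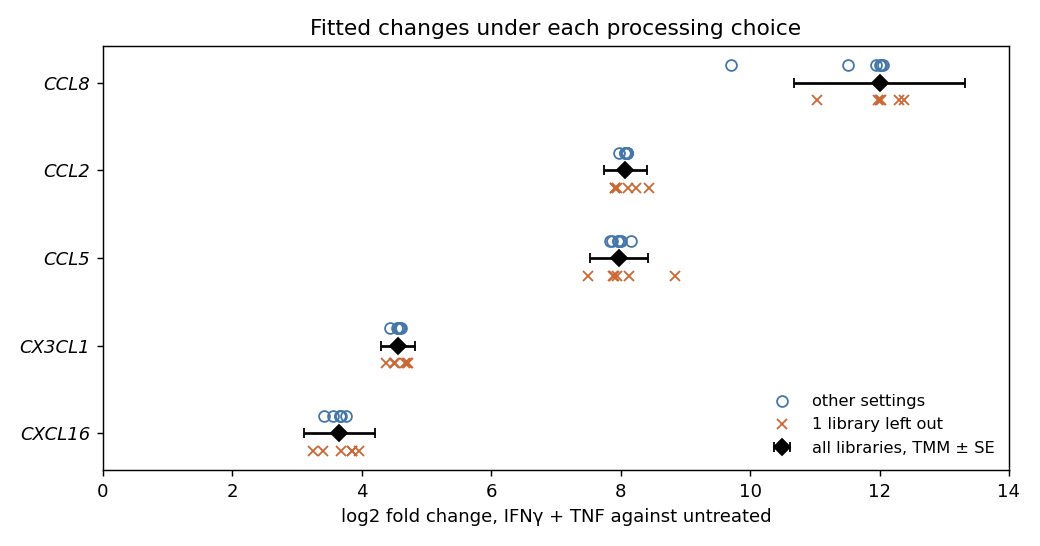
Log2 fold changes of the 5 tested chemokine genes, with the fit to all libraries (diamond, bar for 1 SE), 7 other settings (circles; 6 for CXCL16) and 6 fits with 1 library left out (crosses). Every value was above 0 for all 5 genes; for CCL8, with 0 untreated reads, the values depend on the prior count and are not sizes to compare.

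The order of the members' levels is given in CPM, the scale on which 1 direct RNA read stands for 1 molecule. CX3CL1 came first in untreated cells at 8.90 to 15.7 CPM, above CCL2 at 3.14 to 5.95 with no overlap. CXCL16 (0.262 to 0.683) and CCL5 (0 to 0.517) overlapped. In treated cells CCL2 came first in CPM (928 to 1351), followed by CX3CL1 (264 to 340.5), CCL8 (60.4 to 262), CCL5 (58.2 to 79.7) and CXCL16 (4.62 to 9.98). Among these neighbours in CPM only CCL8 and CCL5 overlapped. Between CX3CL1 and CCL8 the gap was 264 against 262 CPM, although CX3CL1 was higher within each treated library.

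Division by annotated exonic length, which is not the length of the transcripts read, changed that order. CX3CL1 has 5960 exonic bases against 1986 for CCL2 and 862 for CCL8. With 1 read for 1 molecule, counts need no division by length, so the values per kilobase do not rank the transcripts by abundance. In untreated cells CX3CL1 (2.22 ± 0.628 CPM per kilobase) and CCL2 (2.06 ± 0.809) then overlapped. CXCL16 (0.174 ± 0.0760) and CCL5 (0.166 ± 0.173) followed, and also overlapped (SD, n = 3 each). CCL7, CCL8 and CCL20 were at 0. In treated cells the order was CCL2 at 556 ± 111, CCL8 at 152 ± 132, CX3CL1 at 52.6 ± 7.19, CCL5 at 46.9 ± 7.33, CXCL16 at 2.36 ± 1.05, CCL7 at 0.728 ± 0.240 and CCL20 at 0.107 ± 0.0944 CPM per kilobase (SD, n = 3 each). Of neighbours in this order, CX3CL1 and CCL5 overlapped between libraries, from 44.3 to 57.1 and from 38.8 to 53.2, and no other pair did. CCL8 held 70.0, 81.7 and 304 CPM per kilobase in treated replicates 1, 2 and 3, so its mean rests on replicate 3, but each library lay above CX3CL1 on this scale and below it in CPM. CCL2 was above CX3CL1 in treated cells on both scales.

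The make-up of the chemokine reads differed between the groups. The 7 genes together held 47, 85 and 87 reads in untreated replicates 1, 2 and 3, and 5271, 5875 and 7127 in treated ones, or from 0.133% to 0.197% of all treated counts. CX3CL1 made up 68.2% to 79.3% of these reads in untreated libraries and 16.5% to 22.4% in treated libraries. CCL2 went from between 16.1% and 27.1% to between 66.5% and 70.0%. In every library the ratio of CCL2 to CX3CL1 reads kept to its group, from 0.203 to 0.397 in untreated and from 3.04 to 4.03 in treated cells.

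The members differed in how far the treated libraries spread. CX3CL1 and CCL5 had coefficients of variation of 13.7% and 15.6% in CPM, and CCL2 had 19.9%, beside a median of 17.0% over the 6689 tested genes with a treated mean of at least 10 CPM. CCL8 had 86.9%, where counting error alone gives 4.56%, and was the ninth most variable of these genes. CXCL16 had 44.6%, where counting error gives 20.1%. In CCL2, CCL8 and CXCL16 the highest treated library was replicate 3, and in CX3CL1 and CCL5 it was replicate 1. Of the 483 genes that rose and had a treated mean of at least 10 CPM, 19 (3.93%) stood over 2-fold higher in treated replicate 3 than in both others, against 1 for replicate 2 and 0 for replicate 1. Among all 6689 genes the counts for replicates 1, 2 and 3 were 5, 47 and 64. What sets treated replicate 3 apart in CCL8 was not tested.

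**Figure D4:**
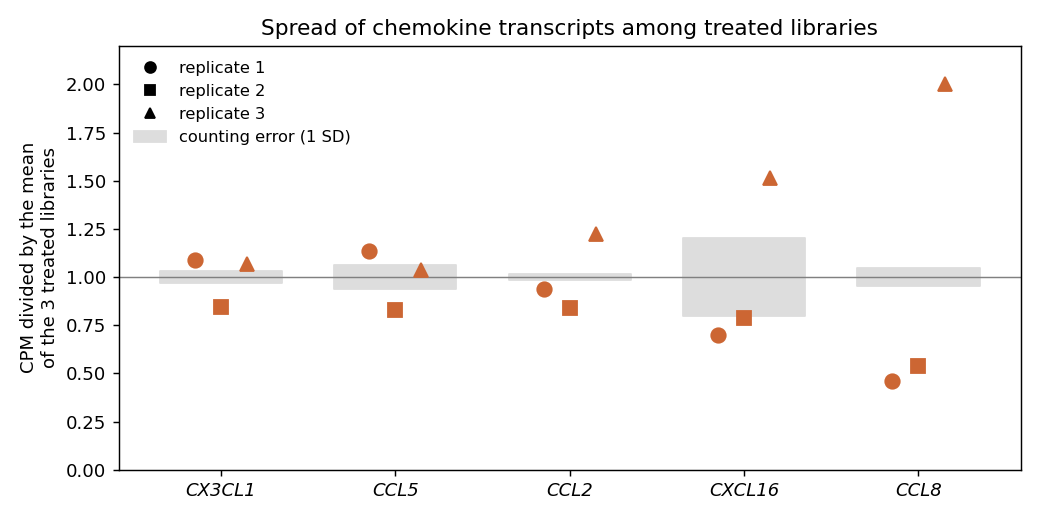
CPM of 5 chemokine genes in each treated library, divided by the mean of the 3 treated libraries, with a grey band for counting error (1 SD). CX3CL1, CCL5 and CCL2 stay near 1, and CCL8 in replicate 3 lies 4.35-fold above replicate 1.

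Genes with the most similar profile were listed for each tested member by the root mean square difference of mean-centred log2 CPM over the 6 libraries, among tested genes whose mean reached 10 CPM. These are descriptions over 6 libraries that share 1 contrast. The log2 CPM carry a prior count of 2, which shrinks the change of genes with few or 0 untreated reads. A small difference therefore does not mean an equal fold change. For CCL8 the nearest gene was IFI27 (difference 0.29 on the log2 scale), with 351, 473 and 1126 treated reads, followed by CTSS (0.49) and OAS2 (0.56). For CX3CL1 they were IFI35 (0.26), HELZ2 (0.31) and TAP1 (0.34), and IFI35 went from 129, 126 and 157 to 2752, 2841 and 3238 reads. CCL2 had SLAMF8 (0.31), the pseudogene ENSG00000226025 (0.35) and BATF2 (0.40) nearest. Their fitted log2 fold changes were 12.12, 12.17 and 9.49, against 8.07 for CCL2. SLAMF8 and ENSG00000226025 had 0 reads in every untreated library. CCL5 had CMPK2 (0.31), GBP1P1 (0.44) and C1R (0.45). CXCL16 had CEBPB (0.20), S100A3 (0.23) and SHFL (0.24), with CEBPB at 1184, 1425 and 2051 treated reads. The fitted log2 fold change of CEBPB was 2.55, against 3.65 for CXCL16. Because the measure is taken over the same 6 libraries, a shared order of replicates follows from how these genes were chosen.

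The rest of the CC family was nearly silent. Of 21 other CC chemokine genes, 14 had 0 reads in all 6 libraries and 2, CCL26 and CCL28, passed the filter. Neither was past the threshold in edgeR's quasi-likelihood test, and 0 of the 2 had an unadjusted p under 0.05 there or in DESeq2 or limma voom. CCL26 (eotaxin-3) had 13, 21 and 7 untreated and 14, 15 and 7 treated reads (log2 fold change -0.13, SE 0.51), and CCL28, a mucosal chemokine, had 7, 7 and 21 untreated and 11, 7 and 16 treated reads (0.10, SE 0.55). In the fit without the filter, 4.43% of 19158 genes were called higher. CCL3, CCL3L3 and CCL11 were among them (edgeR adjusted p 4.53e-06, 0.000499 and 2.66e-05). Adjusted p from the unfiltered fit are not comparable with those of the filtered fit. For CCL8 the same 6 libraries gave an edgeR adjusted p of 2.2e-94 (SE 0.57) without the filter and 0.00188 (SE 1.32) with it. Against the limit of 3 counts, CCL3 was at least 3.42-fold higher, and at least 2.05-fold without treated replicate 3, with its call kept without any 1 library (adjusted p at most 0.00888). CCL3L3 had 1, 5 and 13 treated reads and was at least 2.18-fold higher, but its mean without treated replicate 3, 0.709 CPM, was under that limit. Its call was lost without treated replicate 2 or 3 (adjusted p 0.101 and 0.201). CCL3 and CCL3L3 are near-identical copies, so their reads can be split between them. CCL11 had a ratio of summed counts of 35.0, with an exact 95% interval from 5.85 to 1422.

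Receptors for these ligands were mostly at 0, and none of the 16 listed passed the filter. CCR2, CCR3, CCR6, CX3CR1 and CXCR6, which bind members of the set, had 0 reads in every library. CCR1 had 0, 0 and 1 untreated and 1, 0 and 6 treated reads. CCR10, which binds CCL27 and CCL28, had 8, 3 and 4 untreated and 15, 8 and 12 treated reads. In the fit without the filter, the atypical receptor gene ACKR4 (0 untreated and 2, 7 and 11 treated reads) and CCRL2 (1, 0 and 2 against 8, 7 and 20) were called higher, with edgeR adjusted p of 0.000339 and 0.000211. The call of ACKR4 was lost without treated replicate 2 (adjusted p 0.0752) and that of CCRL2 without treated replicate 3 (0.0575).

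Genes for shedding and cleavage bear on the 2 membrane-bound members. Their list was chosen with earlier results of these data known. Of 16 listed genes, 14 were tested, 2 rose and none fell, with a median log2 fold change of 0.20, beside 5.58% higher and 2.55% lower over all genes tested. ADAM10 and ADAM17, the metalloproteases known to release CX3CL1 and CXCL16, did not pass the threshold. ADAM10 went from 16.6 ± 8.85 to 13.9 ± 8.84 CPM, a change of -0.24 on the log2 scale (SE 0.51). ADAM17 went from 10.6 ± 8.36 to 12.5 ± 3.95 CPM, a change of 0.23 (SE 0.52; SD, n = 3 each). RHBDF2 encodes iRhom2, which helps ADAM17 to mature. It rose from 35.8 ± 4.96 to 120.3 ± 37.2 CPM (log2 fold change 1.75, SE 0.26, edgeR adjusted p 0.0031). The second was CTSS, the gene of the lysosomal protease cathepsin S, which rose from 0.401 ± 0.244 to 239 ± 95.0 CPM (edgeR adjusted p 9.68e-06). RNA levels say nothing of how much chemokine was released.

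In the signalling list, 21 of 23 genes were tested, 8 rose and none fell, with a median log2 fold change of 0.76, beside the same 5.58% and 2.55% over all genes. The list was chosen with earlier results of these data known. On the interferon side IRF1 rose from 34.0 ± 5.92 to 1331 ± 156 CPM and the feedback inhibitor SOCS1 from 4.25 ± 2.10 to 149.9 ± 25.1 CPM (SD, n = 3 each). The receptor genes IFNGR1 (0.27 on the log2 scale, SE 0.44) and IFNGR2 (0.61, SE 0.21) did not pass the threshold. On the TNF side RELA, a subunit of NF-kappaB, rose from 101 ± 22.9 to 314 ± 64.3 CPM, and its inhibitor NFKBIA from 66.9 ± 18.0 to 207 ± 13.3 CPM. CEBPB, a transcription factor of the acute phase response, rose from 70.9 ± 5.69 to 416 ± 147 CPM. TNFRSF1A, the gene of the main TNF receptor, rose by 1.03 on the log2 scale (SE 0.18, edgeR adjusted p 0.008), and RIPK1, the gene of a kinase of that receptor's complex, by 1.10 (SE 0.28, edgeR adjusted p 0.0417). RIPK1 was past the threshold in 6 of 13 alternatives, and 5 of the 6 fits without 1 library were among those where it was not. NFKBIA, TNFRSF1A, RIPK1 and the uncalled genes named from these lists fall outside the naming rule and were chosen after their values were seen.

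Chemokine transcripts are short-lived in many cells because proteins that bind AU-rich or stem-loop elements mark them for decay. All 11 listed decay and stability genes were tested, 3 rose and none fell, with a median log2 fold change of -0.02, again beside 5.58% higher and 2.55% lower over all genes. The 3 were genes of decay factors. This list, too, was chosen with earlier results of these data known. ZFP36L2 rose from 5.63 ± 0.759 to 32.2 ± 1.94 CPM (log2 fold change 2.51, SE 0.23), and ZC3H12A, which encodes the endonuclease Regnase-1, from 6.51 ± 1.26 to 35.1 ± 5.59 CPM (2.43, SE 0.26). ZFP36, which encodes tristetraprolin, rose from 4.72 ± 1.15 to 17.6 ± 4.55 CPM (1.89, SE 0.32; SD, n = 3 each). Their edgeR adjusted p were 0.000206, 0.000451 and 0.00669. ELAVL1, which encodes the stabilising protein HuR, had a log2 fold change of -0.06 (SE 0.24), and KHSRP, which encodes a decay factor, one of -0.02 (SE 0.22).

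**Figure D5:**
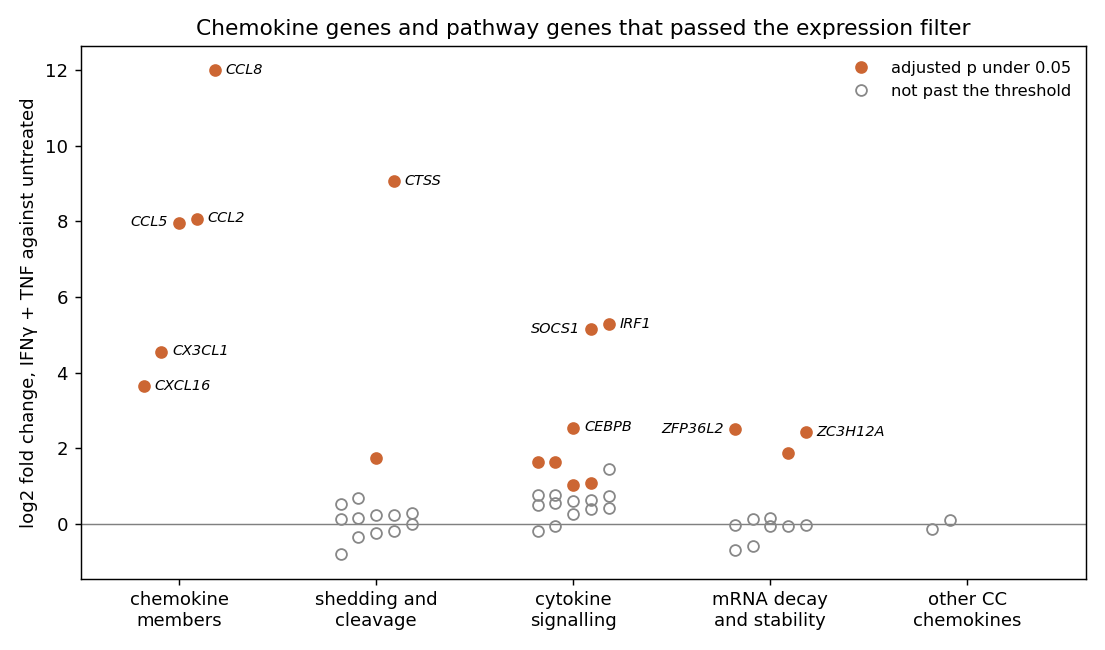
Log2 fold changes of the 5 tested chemokine genes and of the tested genes of 4 lists (1 gene not shown), filled where the edgeR adjusted p was under 0.05. CTSS (9.07), IRF1 (5.29) and SOCS1 (5.15) lie highest outside the chemokine members, and no called gene lies below 0; the value of CCL8 depends on the prior count.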

How the data were processed

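Direct RNA nanopore libraries (500 ng of poly(A)+ RNA, 72 h, SQK-RNA002) of 3 untreated and 3 treated RCC4 cultures were used, grouped by sample title. The deposited values are raw read counts per gene. The authors made them with featureCounts 2.0.1 in long-read, strand-specific mode on exons of Ensembl release 105 (GRCh38), per the file headers; the submitters' processing notes give featureCounts 2.0.0, minimap2 2.24 and SAMtools 1.16. File headers also contain the word dmso, although no vehicle is named in the labels. Symbols matched 61369 of 61541 identifiers.

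All genes were fitted in edgeR 4.0.16 (R 4.3.3; quasi-likelihood F test, TMM, filterByExpr, group as the sole term) with Benjamini-Hochberg adjustment at 0.05 over the 10067 genes tested. CPM use TMM library sizes. SE is the absolute log2 fold change over the square root of F. Folds against groups at 0 use 3 counts in a library, at the highest untreated CPM. Ratios of summed counts carry exact (Clopper-Pearson) 95% binomial intervals. Intervals and count limits cover counting error only. On simulated counts for 10067 genes with 200 changed, edgeR recovered 184 with 6 false calls. The simulation gave all genes the same dispersion, had no outlying library and used smaller changes than those fitted for the tested members. It therefore does not cover genes such as CCL8. Alternatives were 2 normalisations, 2 filters, a replicate block, DESeq2 1.42.0, limma 3.58.1 voom and leaving out each library, also, added after seeing the data, from the unfiltered fit. Named genes were the members, up to 5 called genes of each list, family genes with reads, neighbours and the 3 most similar profiles of each tested member. Members and lists were chosen with earlier results of these data known. The list counts include a few genes whose own values are not reported here.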

Additional observations from a re-analysis of the deposited data

How the results depend on the processing

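CCL2, CCL5, CX3CL1, CCL8 and CXCL16 stayed higher and past the threshold in every fit that tested them (13 each, 12 for CXCL16). Requiring 10 CPM in 3 libraries left CXCL16 and the other CC genes untested. Fitted log2 fold changes without 1 library ran from 7.91 to 8.43 for CCL2, 7.50 to 8.84 for CCL5, 11.03 to 12.38 for CCL8, 4.37 to 4.72 for CX3CL1 and 3.24 to 3.96 for CXCL16. The highest adjusted p of a member was 0.0249, for CXCL16 without untreated replicate 2. The count of all genes called, 819, was 1328 without the filter on low counts, and from 455 to 1178 without 1 library, with 455 without treated replicate 3 and 465 without untreated replicate 2. Scaling to library totals moved the median of all genes to -0.13. The unfiltered fit gave 3 calls among other CC genes and 2 among receptors, where the filtered fit gave 0. Without 1 library the former ran from 0 to 1, the call being CCL11, which then passed the filter (adjusted p from 0.0163 to 0.036). Leaving out 1 library from the unfiltered fit, chosen after seeing the data, kept the calls of CCL3 and CCL11 and lost those of CCL3L3, ACKR4 and CCRL2 at least once.

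With the replicate number as a block, 1513 genes were called, and the 5 members kept their calls. Same-numbered libraries correlated at 0.651, -0.0037 and 0.374 for replicates 1, 2 and 3 in their deviations from group means, so the numbers were not taken to pair the samples. Untreated replicate 2 correlated best with treated replicate 1 (0.249). Depth limits CCL7 and CCL20, for which 3 counts correspond to between 0.677 and 0.866 CPM.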
